A study of Homo sapiens with 8 samples.

Results

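The AP-1 family genes examined here are the FOS genes FOS, FOSB, FOSL1 and FOSL2, the JUN genes JUN, JUNB and JUND, and their relatives ATF3 and BATF3. A peak was assigned to a gene when its summit lay in the gene body or within 50 kb of any of the gene's transcription start sites (TSS). These are 9 of 20162 protein-coding genes, and 244 of the 223511 peaks in the study's 4 peak lists fell at them. The study did ChIP-Seq in PC-3, a human prostate cancer cell line, for the homeodomain protein HoxC5 and its cofactor Pbx4. Endogenous HoxC5 was precipitated in 2 replicates from cells whose genotype is given as control, HoxC5 also from cells carrying Hoxc5 overexpression, and Pbx4 from cells carrying Pbx4 overexpression, with 1 library for each overexpressed protein. The HoxC5 antibody was HPA026794 and the Pbx4 antibody HPA049859. Endogenous Pbx4 was not measured, and the 4 input libraries were not used here.

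AP-1 is a dimer of basic leucine zipper (bZIP) proteins. FOS proteins pair with JUN proteins, while JUN proteins can also pair among themselves, and the dimers read the palindrome-like word TGACTCA, which becomes TGAGTCA on the other strand. The JUN and ATF proteins also form dimers that read the cAMP response element (CRE), TGACGTCA. Several of these genes are switched on within minutes by growth factors or stress and are regulated through both promoters and distant enhancers. Hox and Pbx proteins bind together to words such as TGATTGAT. The peaks described here are places on DNA at these genes, and no expression was measured in these libraries.

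The lists differ in length by orders of magnitude, which bears on every count that follows. Endogenous HoxC5 gave 2525 peaks in replicate 1 and 170 in replicate 2, overexpressed HoxC5 67196 and overexpressed Pbx4 153620. The lists also end at different q. The largest q was 0.0398 in replicate 1, 0.0499 in replicate 2, 0.00997 for overexpressed HoxC5 and 0.0490 for Pbx4. With q of at most 0.001 in both overexpressed lists, 96 HoxC5 and 126 Pbx4 peaks remained at the 9 genes. Overlap between lists was not recomputed at a common q. The lists hold no read totals and the methods give only an average range, so the read depth of each single library is unknown. No test was made on the peak counts, since each list comes from 1 library, and intervals below are exact Clopper-Pearson intervals at 95% that cover counting error only. Fold enrichment is the peak caller's ratio of a peak over the local background and was compared only within a list.

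The sequences below span 50 bases to either side of peak summits, shown because they carry the words on which the description turns, with words in capitals, 5′ to 3′ on the plus strand of GRCh37 (hg19). The first is the site with the highest fold enrichment at any of the 9 genes in both overexpressed lists, the next 5 are examples of promoter and distal sites with a CRE or an AP-1 word, and JUNB and FOS are shown as sites without any of the words searched. The ATF3 CRE window and the JUN window were chosen after their values were seen.
ATF3 intron, overexpressed HoxC5 summit, chr1:212774366-212774466: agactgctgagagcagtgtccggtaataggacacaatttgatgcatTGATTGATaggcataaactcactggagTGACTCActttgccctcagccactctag
ATF3 upstream, overexpressed HoxC5 summit, chr1:212732331-212732431: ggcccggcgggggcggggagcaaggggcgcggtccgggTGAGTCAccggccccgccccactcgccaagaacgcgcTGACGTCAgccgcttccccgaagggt
JUND promoter, endogenous HoxC5 summit, chr19:18392617-18392717: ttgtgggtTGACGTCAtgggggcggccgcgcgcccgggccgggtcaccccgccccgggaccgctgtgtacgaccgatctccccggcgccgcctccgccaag
FOSL1 upstream, endogenous HoxC5 summit, chr11:65683315-65683415: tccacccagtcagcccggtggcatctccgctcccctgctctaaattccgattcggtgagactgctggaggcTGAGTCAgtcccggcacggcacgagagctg
BATF3 upstream, overexpressed HoxC5 summit, chr1:212895035-212895135: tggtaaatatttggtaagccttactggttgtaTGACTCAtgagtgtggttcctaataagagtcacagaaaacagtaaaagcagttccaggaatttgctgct
JUN downstream, overexpressed HoxC5 summit, chr1:59221154-59221254: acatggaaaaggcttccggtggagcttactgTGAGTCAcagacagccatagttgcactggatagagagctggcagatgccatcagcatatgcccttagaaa
JUNB downstream, endogenous HoxC5 summit, chr19:12904564-12904664: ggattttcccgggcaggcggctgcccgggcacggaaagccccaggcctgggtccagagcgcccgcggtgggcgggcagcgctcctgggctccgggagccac
FOS upstream, overexpressed Pbx4 summit, chr14:75696870-75696970: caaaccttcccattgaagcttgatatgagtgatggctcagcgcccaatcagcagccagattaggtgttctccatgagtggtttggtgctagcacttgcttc

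Endogenous HoxC5 had peaks at FOSL1, JUNB, JUND and ATF3 in replicate 1, which is 4 of 9 genes beside 17.1% of all protein-coding genes. In replicate 2 only FOSL1 had a peak, beside 1.47% of genes. FOS, FOSB, FOSL2, JUN and BATF3 had none in either replicate. With q of at most 0.001 the JUNB and JUND peaks and the replicate 2 peak were not kept, which left FOSL1 and ATF3. At 3 of the 4 genes, FOSL1, JUND and ATF3, a replicate 1 summit lay within 1 kb of a TSS, which held for 3.38% of all genes. No summit of replicate 2 did, beside 0.208% of genes. Median fold enrichment of the replicate 1 peaks at these genes was 4.44, below the 4.98 of its whole list. The replicate 2 peak had 4.80, below its list's median of 6.23.

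In the overexpressing cells every one of the 9 genes had peaks of both proteins, as did most genes of the genome. Overexpressed HoxC5 had 100 peaks at the 9 genes and Pbx4 had 137, while 87.8% and 93.0% of protein-coding genes had at least 1 peak in these lists. The median of the 9 genes was 11 peaks for HoxC5 and 13 for Pbx4, beside medians of 4 and 8 over all protein-coding genes. Summits within 1 kb of a TSS were found at 7 genes for HoxC5 (all but FOS and BATF3) and at 7 for Pbx4 (all but FOS and JUND), beside 54.9% and 41.9% of all genes. FOS was the only one of the 9 without a summit that close in any list. Median fold enrichment at the 9 genes was below that of the whole list, 5.77 against 6.17 for HoxC5 and 5.73 against 6.36 for Pbx4.

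The genes sit in very different neighbourhoods, which decides what their windows take in. FOS, FOSL2, JUN and BATF3 have no TSS of another protein-coding gene inside their windows, whereas FOSL1 shares its window with 9 other genes, JUNB with 7, JUND with 5, FOSB with 4 and ATF3 with 1. The ATF3 window is also the longest, at 149.8 kb, because its 7 start sites are spread out, and the others run from 100.001 to 112.3 kb. Of the HoxC5 peaks, 54 of 100 had a member of the family as the gene with the nearest TSS, and of the Pbx4 peaks 93 of 137 did. The ATF3 and BATF3 windows overlap, so that 1 HoxC5 peak and 5 Pbx4 peaks count for both genes but once in the totals.

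FOS encodes the classical immediate-early partner of JUN. It had no endogenous peak, and the nearest replicate 1 summit was 78.1 kb from a FOS TSS. Overexpressed HoxC5 gave 2 peaks, 15.1 kb and 27.8 kb downstream with fold enrichments of 5.11 and 6.37, and 78.7% of protein-coding genes had at least as many. Overexpressed Pbx4 gave 13, all between genes, of which the nearest was 1.72 kb upstream (fold enrichment 4.83) and the highest 48.6 kb upstream (11.1). Of 14 merged sites at FOS, 12 were Pbx4 sites without HoxC5 and 1 was shared, about 15 kb downstream. Of the 13 Pbx4 peaks 1 overlapped a HoxC5 peak, beside 28.5% of the whole Pbx4 list. FOS thus had the fewest HoxC5 peaks of the 9 genes, and those it had lay away from the gene.

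FOSB, a close relative of FOS with a shorter splice form that lacks part of the activation domain, had no endogenous peak. Overexpressed HoxC5 had 13 peaks and Pbx4 had 11. The nearest summits lay 105 bp (HoxC5, fold enrichment 6.14) and 146 bp (Pbx4, 3.27) downstream of a TSS, and these peaks overlapped. Only 2 of the HoxC5 and 1 of the Pbx4 peaks had FOSB as their nearest gene, whereas 8 and 9 were nearest to ERCC1, the DNA repair gene annotated across this region. The highest HoxC5 peak was 43.5 kb upstream in an ERCC1 intron (9.39) with an AP-1 word, and the highest Pbx4 peak 7.25 kb downstream (9.13). Their summits lay 94 bp and 499 bp from ERCC1 TSSs.

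FOSL1 encodes FRA1, a FOS protein that lacks the C-terminal activation domain and is often abundant in invasive epithelial tumours. It had the most endogenous and the most HoxC5 peaks of the family, with 3 peaks in replicate 1, 1 in replicate 2, 26 for overexpressed HoxC5 and 17 for overexpressed Pbx4. Only 0.729% of protein-coding genes had 26 or more HoxC5 peaks, but 7 of the 26 were nearest to FOSL1 itself. The others were nearest to CCDC85B, C11orf68, FIBP, DRAP1, CFL1, MUS81, EFEMP2 and TSGA10IP, and the part of gene density in the count was not tested.

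The 3 replicate 1 peaks at FOSL1 had distinct positions. The first, chr11:65667950-65668125, had its summit 9 bp upstream of a FOSL1 TSS with a fold enrichment of 4.80. The second, chr11:65683278-65683466, lay 15.3 kb upstream between genes, nearest to C11orf68, with a fold enrichment of 5.85 and the AP-1 word printed above. The third, chr11:65658500-65658844, lay 9.22 kb downstream in the coding exon of CCDC85B (4.15).

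The replicate 2 peak, chr11:65658124-65658413 with a fold enrichment of 4.80, was in the same CCDC85B exon but did not overlap the replicate 1 peak. No endogenous peak at the 9 genes therefore overlapped one of the other replicate. Over the whole lists 5.35% of replicate 1 peaks and 79.4% of replicate 2 peaks did. A HoxC5 peak of the overexpressing cells, chr11:65657772-65659833, spanned both (fold enrichment 10.4), and a Pbx4 peak with its summit 9.49 kb downstream (3.60) overlapped all of them. This is the only one of the 175 merged sites at the 9 genes with peaks from all 4 lists, and overexpressed peaks join its endogenous ones. At the FOSL1 promoter the overexpressed summits were 113 bp (HoxC5, 6.19) and 80 bp (Pbx4, 4.49) downstream of that same 5′ TSS, inside the gene, and at the upstream AP-1 word 15.4 kb (HoxC5, 10.2) and 15.4 kb (Pbx4, 5.40) upstream. The highest HoxC5 peak was 11.3 kb upstream (12.6) and the highest Pbx4 peak 41.0 kb upstream (10.7), which held an AP-1 word.

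FOSL2 encodes FRA2, the other FOS protein without a strong activation domain. No endogenous peak was found at it, and the nearest of replicate 1 was 188.6 kb away. All 7 HoxC5 peaks lay within 10 kb of a TSS, and the 12 Pbx4 peaks spread over the window. The promoter had adjacent summits, for HoxC5 22 bp upstream of a TSS (8.63) and for Pbx4 23 bp downstream of a TSS (10.5), and both windows held the AP-1 word. The highest HoxC5 peak was 1.38 kb downstream in the gene (8.81) and the highest Pbx4 peak 4.69 kb upstream (12.3).

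JUN encodes the partner that FOS proteins require, and it can act as a homodimer. Its window holds no other protein-coding TSS, and all of its 16 HoxC5 and 22 Pbx4 peaks had JUN as the nearest gene. As many peaks or more were found at 3.97% of protein-coding genes for HoxC5 and at 8.45% for Pbx4. Endogenous HoxC5 had none, the nearest of replicate 1 being 86.5 kb away.

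At the JUN promoter both proteins had a peak, with summits 1 bp (HoxC5, fold enrichment 6.38) and 47 bp (Pbx4, 12.3) upstream of the TSS. The highest Pbx4 peak lay 3.79 kb downstream of a TSS in the annotated gene (12.6) and overlapped a HoxC5 peak (6.60). The highest HoxC5 peak lay 18.9 kb downstream (7.87), also with Pbx4. The JUN window printed above, 28.5 kb downstream (7.54), overlapped a Pbx4 peak too. JUN was among the genes on which the lists overlapped most. Of its 16 HoxC5 peaks 14 overlapped a Pbx4 peak, beside 67.7% of the whole list, and 12 of 23 merged sites held both proteins.

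JUNB, a JUN protein that often opposes JUN in growth control, showed the reverse. Of its 14 HoxC5 peaks only 2 overlapped a Pbx4 peak, beside 67.7% of the whole list. In all, 12 merged sites had HoxC5 without Pbx4 and 7 had Pbx4 without HoxC5. The 2 shared peaks were at or near the promoter, with nearest summits 7 bp downstream for HoxC5 (6.07) and 140 bp upstream for Pbx4 (5.73). The replicate 1 peak, chr19:12904597-12904959, had its summit 2.31 kb downstream of the JUNB TSS in an intron of HOOK2 (3.57), overlapped a HoxC5 peak of the overexpressing cells (6.38) and overlapped no Pbx4 peak. HOOK2, which encodes a microtubule adaptor, was the nearest gene of 8 of the 14 HoxC5 peaks. The highest peaks were 10.4 kb downstream for HoxC5 (6.90) and 30.4 kb downstream for Pbx4 (7.92).

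JUND, the most evenly expressed JUN gene in many tissues, had HoxC5 but no Pbx4 at its promoter. The replicate 1 peak, chr19:18392334-18392948, had its summit 235 bp upstream of the TSS (3.77), and the peak of overexpressed HoxC5 171 bp upstream (8.72) overlapped it. Both windows hold the same CRE, and this word was found within 50 bp of 0.369% of all summits of overexpressed HoxC5. The nearest Pbx4 summit was 4.92 kb downstream of a TSS (4.05) and the highest 5.40 kb downstream (6.24), both nearest to IQCN. With 7 HoxC5 and 7 Pbx4 peaks, JUND was the only gene below the all-gene median for Pbx4, and 56.9% of genes had at least 7.

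ATF3 encodes a stress-induced bZIP protein that acts mostly as a repressor. It had the most Pbx4 peaks of the family, 36, beside 11 for overexpressed HoxC5, 1 in replicate 1 and 0 in replicate 2. At least 36 Pbx4 peaks were found at 2.44% of protein-coding genes, with a window longer than those of the other 8 genes. Per 10 kb of window the Pbx4 count was 2.40 at ATF3, 2.20 at JUN and 1.70 at FOSL1. Every one of the 11 HoxC5 peaks overlapped a Pbx4 peak, beside 67.7% of the whole HoxC5 list. The other 27 of 36 merged sites had Pbx4 without HoxC5. Of the 36 Pbx4 peaks 9 overlapped a HoxC5 peak, beside 28.5% of the whole Pbx4 list.

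The replicate 1 peak at ATF3, chr1:212781950-212782123, had its summit 39 bp upstream of the TSS of transcript ATF3-202, inside the gene (4.73). At the same place overexpressed HoxC5 had a summit 45 bp downstream of the neighbouring TSS of transcript ATF3-208 (12.6), and Pbx4 247 bp upstream (9.74). These 3 peaks form the only merged promoter site at ATF3 with endogenous HoxC5.

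The intronic site 7.60 kb upstream of ATF3-208, the first sequence above, had the highest fold enrichment at any of the 9 genes in both lists. It was 13.0 for HoxC5, within the top 4.91% of that list by fold enrichment, and 22.4 for Pbx4, within the top 0.265%. It was the only peak of either protein at the 9 genes whose window held TGATTGAT, and the AP-1 word followed 19 bases after it. For TGATTGAT this is 1 of 100 HoxC5 and 1 of 137 Pbx4 peaks, beside 0.796% and 0.469% of the whole lists. The HoxC5 summit lay on the Hox-Pbx word and the Pbx4 summit 8 bases beyond the middle of the AP-1 word. Both words within 50 bp of a summit occurred at 0.173% of all HoxC5 peaks and 0.0690% of all Pbx4 peaks. Each list was also cut to the 2525 peaks of lowest q, the length of replicate 1, from 67196 for HoxC5 and 153620 for Pbx4. At the 9 genes 3 of 100 HoxC5 peaks remained, the intronic site, the ATF3 internal promoter and the CCDC85B site near FOSL1. Of the 137 Pbx4 peaks, the intronic site alone remained.

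Other ATF3 sites also had both proteins. The site 12.1 kb upstream of ATF3-208 had a fold enrichment of 11.7 for HoxC5 and, at 12.2 kb, 5.79 for Pbx4, with an AP-1 word in both windows. In front of the most upstream TSS, summits lay 6.30 kb (HoxC5, 3.97) and 6.19 kb (Pbx4, 6.03) upstream, and the HoxC5 window is the second sequence above, with the AP-1 word and the CRE 30 bases apart. These sites were singled out after their values were seen.

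BATF3 encodes a small bZIP protein that pairs with JUN proteins and lacks an activation domain of its own. HoxC5 had 5 peaks, none of them within 10 kb of a TSS, the nearest 15.6 kb downstream of a TSS (7.23). Pbx4 had 15, of which the nearest was 18 bp downstream of a TSS in the gene (3.27). The highest peak of both lists was the same site upstream of the gene, at 21.9 kb for HoxC5 (9.39) and 21.9 kb for Pbx4 (13.2), and it holds the AP-1 word in both windows. No endogenous peak lay in the window.

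Across the 9 genes, 57 of 100 HoxC5 peaks overlapped a Pbx4 peak by at least 1 bp (57%, interval 46.7 to 66.9), beside 67.7% of the whole list. In the other direction 56 of 137 Pbx4 peaks overlapped a HoxC5 peak (40.9%, 32.6 to 49.6), beside 28.5% of the whole list. The shares differed widely by gene, from 2 of 14 HoxC5 peaks at JUNB and 12 of 26 at FOSL1 to 14 of 16 at JUN and 11 of 11 at ATF3. Neighbouring peaks share a locus and are not independent.

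Within 1 kb of a TSS of the family gene and farther from it, the shares were 7 of 13 and 50 of 87 for HoxC5 peaks. For Pbx4 peaks they were 7 of 9 and 49 of 128. The farther peaks include some at promoters of other genes, such as HoxC5 summits 3 bp from TSSs of FIBP and DRAP1. The split is thus not one of promoter against distal sites. Where the lists overlapped at these genes, 33 of 62 pairs of summits were at most 100 bp apart (53.2%, median 91.5 bp), beside 73.7% and a median of 51 bp over all overlapping pairs. All 6 replicate 1 peaks overlapped a peak of overexpressed HoxC5, beside 76.4% of that replicate's list, and 4 of 6 overlapped Pbx4, beside 70.8%. The JUNB and JUND peaks were the pair without Pbx4.

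The 244 peaks merged into 175 sites. Of these, 81 had Pbx4 only, 41 overexpressed HoxC5 only and 47 both overexpressed proteins without endogenous HoxC5. The 6 sites with endogenous HoxC5 all had overexpressed HoxC5, and 4 of them, 3 at FOSL1 and 1 at ATF3, also had Pbx4. By annotation, 45 of the HoxC5 peaks at the 9 genes lay between genes, 32 in introns and 16 in untranslated regions, and 89, 36 and 7 of the Pbx4 peaks did.

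The AP-1 word TGACTCA, on either strand, lay within 50 bp of 19 of 100 summits of overexpressed HoxC5 at these genes (19%, interval 11.8 to 28.1), beside 20.5% of the whole list. For Pbx4 it was 16 of 137 (11.7%, 6.82 to 18.3), beside 18.5%. In replicate 1 it was 1 of 6, the upstream FOSL1 site, beside 16.0%, and the replicate 2 peak had none, beside 14.1%. In neither overexpressed list was the share at the AP-1 genes above that of the list as a whole. FOS had no peak with it in any list, JUNB had 1 Pbx4 peak, and ATF3 had the most, with 6 HoxC5 peaks.

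The HoxC5 peaks with the AP-1 word lay mostly on Pbx4 peaks. Of the 19 with the word, 18 overlapped a Pbx4 peak, against 39 of the 81 without it, and their median fold enrichment was 7.54 against 5.65. Over the whole HoxC5 list the same split gave 88.2% with the word and 62.4% without, with medians of 6.86 and 6.09, so the direction was that of all HoxC5 peaks. Of the 16 Pbx4 peaks with the word, 12 overlapped a HoxC5 peak, against 44 of 121 without, with medians of 6.22 and 5.72, and over the whole Pbx4 list 37.6% and 26.5% did, with medians of 7.12 and 6.199. These splits were made after the values were seen and were not tested. Only 1 of the 19 and 2 of the 16 were within 1 kb of a TSS of their family gene, and the FOSL2 promoter was among both. TSSs of other genes were not counted here, and 1 HoxC5 peak with the word at FOSB was 94 bp from an ERCC1 TSS.

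The CRE was rare but present at 3 HoxC5 peaks, at the JUND promoter, upstream of ATF3 and 35.5 kb downstream of FOSB near VASP (4.02), beside 0.369% of the whole list. It was found at 1 Pbx4 peak, 34.5 kb upstream of FOS (4.27), beside 0.109%. Of the Hox and cofactor words, TAATGA was at 2 of 100 HoxC5 summits (8.41% of the list) and 12 of 137 Pbx4 summits (7.61% of the list). The Meis word TGACAG was at 3 HoxC5 summits (7.88% of the list) and 10 Pbx4 summits (10.4%), and TAATTA at 3 (2.01%) and 2 (1.96%). TGATTAAT was at no HoxC5 summit, where a count of 0 of 100 allows up to 3.62% and the list had 0.807%, and at 1 Pbx4 summit (0.691% of the list). Overlap of letters between words was allowed, and a missing word says only that these letters are not in the window.

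The 50 kb limit had peaks on either side of it. The farthest HoxC5 peak inside was 47.0 kb upstream of JUND (2.75) and the first outside 50.2 kb upstream of BATF3 (3.003). For Pbx4 these were 48.9 kb upstream of ATF3 (5.44) and 50.1 kb downstream of FOSB (5.19). Replicate 1 had nothing between the FOSL1 peak at 15.3 kb and one 61.0 kb upstream of FOSL1 (3.77), and the next peak of replicate 2 was 98.7 kb upstream of JUND.

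By the same rule, 7 of 25 other bZIP genes had a replicate 1 peak, beside 17.1% of all protein-coding genes. The 25 include ATF, CREB, MAF and BACH genes, and the 7 were ATF4, CREB5, CREM, DDIT3, JDP2, MAFK and BACH2. None of the 25 had a replicate 2 peak, 23 had a peak of overexpressed HoxC5 and 25 of overexpressed Pbx4. Their medians were 7 and 13 peaks a gene in the overexpressed lists. A further list held 19 genes of the signalling upstream of FOS and JUN. None of the 19 had a replicate 2 peak and all had a peak in both overexpressed lists, with medians of 6 and 9. The AP-1 family medians were 11 and 13, and those over all protein-coding genes 4 and 8. Of all protein-coding genes, 1.47% had a replicate 2 peak, 87.8% one of overexpressed HoxC5 and 93.0% one of overexpressed Pbx4.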

How the data were processed

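ChIP-Seq peaks were taken as the authors deposited them, 1 narrowPeak list for each of the 4 ChIP libraries; 4 input libraries were not used. Alignment to hg19 was by BWA-MEM, duplicates were removed, and the authors ran MACS2 with a threshold on the q-value. The largest q differed between the lists, and the overexpressed HoxC5 list ended at 0.00997, lower than the other lists. The MACS2 version and the control of each call are not given in the sources used here. The deposited lists give an interval, a summit, a fold enrichment (a ratio), the p and q of each peak as −log10, and a score that follows q. No read totals are in them and the methods state only an average range, so the depth of a single library and the precision it gives are unknown.

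Summits were placed against GENCODE 44 lifted to GRCh37, with all TSSs of a gene. Overlap meant at least 1 bp, and words were sought on both strands within 50 bp of summits in the GRCh37 sequence (Python 3.11.15, pandas 2.3.3, pysam 0.24.0, scipy 1.17.1). Summits on sequences outside the genome file were left out of word counts. Shares have Clopper-Pearson intervals at 95%, and the functions were tested on simulated data. Named peaks were all endogenous ones, for each gene and overexpressed list the nearest and the highest, and those at the 50 kb limit; others are said to be chosen later. The genes, gene lists and words were chosen with earlier results of these data known. Alternatives were windows of 20 and 100 kb, q of at most 0.001, fold enrichment of at least 5, shortened lists, stricter overlap, other word windows, each endogenous replicate left out and, added after seeing the data, only peaks nearest to a family gene. The replicate 1 result of the signalling gene list is not reported here.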

Additional observations from a re-analysis of the deposited data

How the results depend on the processing

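Counts followed the window and the filters. With a window of 100 kb, replicate 1 had 14 peaks at 7 genes, replicate 2 had 2 peaks at 2 genes, overexpressed HoxC5 152 and Pbx4 212, and with 20 kb Pbx4 had 75. With a fold enrichment of at least 5, replicate 1 kept 1 peak at 1 gene, FOSL1, replicate 2 kept 0 peaks at 0 genes, HoxC5 66 and Pbx4 90. With q of at most 0.001, replicate 1 kept 2 genes, FOSL1 and ATF3, and lost JUNB and JUND. Replicate 2 kept 0 peaks at 0 genes. Cut to the length of replicate 1, HoxC5 had 3 peaks at 2 genes and Pbx4 had 1 peak at 1 gene. With only peaks nearest to a family gene, replicate 1 had 3 peaks, replicate 2 had 0 at 0 genes and HoxC5 had 54. Overlap of HoxC5 peaks with Pbx4 was 24% when the overlap had to cover at least 50% of each peak, 33% with summits at most 100 bp apart, 43.9% with a fold enrichment of at least 5 in both and 29% with the Pbx4 list cut to the length of the HoxC5 list. In the other direction it was 17.5%, 24.1% and, with the shortened list, 55.3%. Overlap of replicate 1 with HoxC5 was 33.3% under the stricter overlap, and with Pbx4 33.3% under that overlap and with summits at most 100 bp apart, 100% at a fold enrichment of at least 5 (1 peak left) and 16.7% with the shortened list. The AP-1 word within 25 bp was at 0% of replicate 1 and 5.84% of Pbx4 summits, within 100 bp at 20.4% and anywhere in the peak at 25.5% of Pbx4 peaks. Whole-list shares were counted within 50 bp only, so these values cannot be set against them. Merged endogenous peaks numbered 7 at 4 genes, and 1 to 6 peaks at 1 to 4 genes with a replicate left out, so replicate 1 carried JUNB, JUND and ATF3. In total 48 values stayed within 1.5 times for counts, or within the main interval for shares, and 40 did not. That interval is wide for the 6 replicate 1 peaks. No paired analysis was possible because the results come from no test. With 1 library for each overexpressed protein and depths unknown, differences between lists cannot be told apart from differences between libraries.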
